A study of Mus musculus with 2 samples.

Results

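The 10 genes of long-chain polyunsaturated fatty acid synthesis were followed in total RNA from the adrenal gland. They comprised the desaturases Fads1, Fads2 and Scd2, the elongases Elovl1, Elovl2, Elovl4, Elovl5 and Elovl7, the acyl-CoA synthetase Acsl4 and the lysophospholipid acyltransferase Lpcat3. The members were given as a list of symbols, and all 10 were matched by gene ID among 55536 annotated genes, of which 22015 are nuclear protein-coding genes. The glands came from 2 adult male mice of strain B6CASTF1/J, a hybrid of B6 and Cast parents, aged 8 to 10 months, and no treatment is named in the labels. The labels number them replicate 1 (animal 2) and replicate 2 (animal 4), and name no second group. Each library was made from 300 ng of RNA of whole gland, which mixes cortex, medulla and surrounding tissue. In such bulk RNA, fewer cells of a type and less RNA per cell cannot be told apart.

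Polyunsaturated fatty acids of long chain, such as arachidonic and docosahexaenoic acid, are built from dietary precursors by alternating desaturation and elongation in the endoplasmic reticulum. Fads2 inserts the first new double bond into these precursors, Elovl5 and Elovl2 lengthen the chain, and Fads1 inserts a further double bond. Acsl4 activates free polyunsaturated acids to acyl-CoA, and Lpcat3 places polyunsaturated chains in membrane phospholipids. The adrenal cortex is known for storing such acids in its cholesteryl esters, and adrenic acid takes its name from the gland. Scd2, Elovl1 and Elovl7 act mainly on saturated and monounsaturated chains and are known as companions of this route.

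Promoter sequence was taken from RefSeq (GRCm38.p6) as the 250 bases before each annotated start, and 8 of the 10 genes matched, in 10 windows, all but Fads1 and Scd2. Elovl1 and Elovl2 have 2 windows each, and the one shown is the one farther upstream. The sequences shown are those of Elovl5 and Elovl2, the elongases with the highest and the lowest level in the gland, and of Elovl1 and Acsl4 for comparison. They run 5′ to 3′ in the direction of the gene. The Elovl5 window is chr9:77917115-77917364 (plus strand), the Elovl1 window chr4:118427843-118428092 (plus), the Elovl2 window chr13:41220404-41220653 (minus) and the Acsl4 window chrX:142390536-142390785 (minus). Capitals mark matches to CACGTG (the E-box), CCAAT (the CCAAT box) and GGGCGG (the GC box) on either strand, so that ATTGG and CCGCCC are reverse-strand matches and overlapping matches form longer runs.
Elovl5: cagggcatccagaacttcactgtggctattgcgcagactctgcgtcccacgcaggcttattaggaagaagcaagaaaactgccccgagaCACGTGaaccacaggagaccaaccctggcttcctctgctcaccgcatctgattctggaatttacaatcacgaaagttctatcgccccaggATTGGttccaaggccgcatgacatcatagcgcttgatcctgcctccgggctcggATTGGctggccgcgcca
Elovl1: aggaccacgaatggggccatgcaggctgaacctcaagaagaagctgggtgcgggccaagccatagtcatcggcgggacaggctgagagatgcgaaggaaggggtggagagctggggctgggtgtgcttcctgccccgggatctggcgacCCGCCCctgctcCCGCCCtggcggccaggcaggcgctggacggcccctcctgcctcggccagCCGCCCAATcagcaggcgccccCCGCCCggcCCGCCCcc
Elovl2: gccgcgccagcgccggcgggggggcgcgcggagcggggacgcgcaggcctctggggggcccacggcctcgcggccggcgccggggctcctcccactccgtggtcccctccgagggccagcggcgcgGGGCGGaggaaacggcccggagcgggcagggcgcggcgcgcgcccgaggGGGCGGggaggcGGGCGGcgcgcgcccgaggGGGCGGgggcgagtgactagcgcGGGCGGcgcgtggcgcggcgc
Acsl4: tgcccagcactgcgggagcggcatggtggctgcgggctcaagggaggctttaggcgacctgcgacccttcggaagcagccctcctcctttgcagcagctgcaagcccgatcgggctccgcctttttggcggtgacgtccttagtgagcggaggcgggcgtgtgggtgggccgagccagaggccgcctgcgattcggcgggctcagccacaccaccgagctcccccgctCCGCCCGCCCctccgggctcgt

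The Elovl5 window held 55.6% G and C and 14 CpG dinucleotides, against a median of 52.4% and 6 CpG over all 32851 windows. The Elovl2 window shown held 87.2% and 49 CpG, the Elovl1 window shown 72% and 18 CpG, and the Acsl4 window 70.8% and 25. The further windows held 79.6% and 42 CpG for Elovl2, with no motif match, and 58.0% and 5 CpG for Elovl1. The windows of the other genes held 64.8% for Fads2, 69.6% for Elovl4, 70.0% for Lpcat3 and 73.6% for Elovl7. Among the member windows, that of Elovl5 was the lowest in G and C and the Elovl2 window shown the highest. G and C did not run in order of level, since the window of the scarce Elovl4 lay below those shown of Acsl4 and Elovl1. In the Elovl5 window the E-box began 161 bases before the start and the CCAAT boxes 71 and 17 bases before it. The E-box was found in 1 of the 10 member windows and in 6.02% of all windows. CCAAT was found in 33.8% of all windows and in those of Elovl1, Elovl5 and Lpcat3. GGGCGG was found in 32.7% of all windows and in 8 member windows, those of Acsl4, Elovl1, Elovl2, Elovl4, Elovl7, Fads2 and Lpcat3. The sterol regulatory element TCACNCCAC (1.05% of all windows), the direct repeat bound by liver X receptors (0.0152%) and the cAMP response element TGACGTCA (1.55%) matched none of the 10 windows on either strand, which do not cover Fads1 and Scd2. By the GENCODE M21 annotation, 243 of the 250 bases of the Fads2 window lie inside the gene. Most of the sequence before that start of Fads2 was therefore not searched. Also inside their genes lie 77 bases of the Lpcat3 window, 243 of the further Elovl2 window and all 250 of the further Elovl1 window. Motif hits here are matches of letters in short windows and not binding sites.

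Levels were compared between genes in TPM, a measure scaled to the same total in each library and divided by transcript length. Nuclear protein-coding genes held 36.6% and 38.2% of that total, other annotated nuclear genes 54.4% and 50.3%, and mitochondrial genes 8.71% and 11.2%. Levels are therefore lower than on a scale of coding genes alone. The libraries held 29994901 and 33987434 expected counts on annotated genes. Markers of both adrenal compartments were present: the 10 markers of steroidogenic cortex summed to 24250 and 19487 TPM and the 10 of chromaffin cells to 3918 and 2881 TPM, and none was listed at 0. The 7 kidney markers summed to 0.490 and 1.84 TPM, with Umod, Slc12a1, Slc34a1 and Kap among those listed at 0 in at least 1 library. Markers of fat stood apart between the glands, since 10 adipocyte markers summed to 258 TPM in replicate 1 and 2248 TPM in replicate 2, and 7 brown adipocyte markers to 18.0 and 258 TPM.

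The polyunsaturated desaturases were among the most abundant messages of the gland. Fads2 (ENSMUSG00000024665.8; mm10 chr19:10062765-10101746, minus strand), the desaturase of the first step, was at 1034 TPM in replicate 1 and 625 TPM in replicate 2, a mean of 830 ± 289 TPM (SD, n = 2). Fads1 (ENSMUSG00000010663.5; chr19:10182888-10196877, plus strand), which acts after it, was at 1055 and 571 TPM, a mean of 813 ± 342. By mean TPM they ranked 20 and 23 among nuclear protein-coding genes. Both were higher in replicate 1, and their ranges over the 2 animals overlapped, so neither gene was set above the other. The ratio of Fads2 to Fads1 was 0.981 in replicate 1 and 1.10 in replicate 2.

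Scd2 (ENSMUSG00000025203.6; chr19:44293674-44306864, plus strand), a stearoyl-CoA desaturase that makes monounsaturated acids, was at 510 and 455 TPM, a mean of 483 ± 38.4 and rank 55. It lay below both Fads genes and above every elongase. The 3 desaturases made up 86.5% of the summed TPM of the 10 genes in replicate 1 and 82.3% in replicate 2. That sum was 3005 TPM in replicate 1 and 2007 in replicate 2, or 0.821% and 0.526% of the TPM of nuclear protein-coding genes.

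The elongases spread from 0.19 to 210 TPM, and Elovl5 supplied most of their message. Elovl5 (ENSMUSG00000032349.13; chr9:77917364-77984519, plus strand), which lengthens polyunsaturated chains, was at 210 and 183 TPM, a mean of 197 ± 18.9. It made up 85.4% of the summed TPM of the 5 elongases in replicate 1 and 86.3% in replicate 2. Elovl1 (ENSMUSG00000006390.15; chr4:118428093-118432953, plus strand), which extends saturated and monounsaturated chains, was at 32.9 and 27.4 TPM, a mean of 30.2 ± 3.85.

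Elovl7 (ENSMUSG00000021696.9; chr13:108214404-108285683, plus strand), another elongase of saturated chains, was at 2.03 and 1.02 TPM, a mean of 1.53 ± 0.714, just over the detection limit of 1 TPM. Elovl4 (ENSMUSG00000032262.13; chr9:83778692-83806277, minus strand), known for very long chains in retina and skin, was at 0.65 TPM from 39 counts and 0.38 TPM from 33 counts, a mean of 0.515 ± 0.191. Elovl2 (ENSMUSG00000021364.16; chr13:41182381-41220405, minus strand), which in liver carries the chain on towards docosahexaenoic acid, was at 0.35 TPM from 36 counts and 0.19 TPM from 21 counts, a mean of 0.270 ± 0.113. Elovl2 and Elovl4 were thus under 1 TPM in both glands, though above the limit that a count of 0 allows, which is 3 counts or 0.101 and 0.0871 CPM, counts scaled to the library total without regard to length. Rescaled over nuclear coding genes, Elovl4 was at 1.78 and 0.996 TPM and Elovl2 at 0.957 and 0.498 TPM. The deposited credibility bounds of Elovl2 were 0.251 to 0.472 TPM in replicate 1 and 0.122 to 0.284 in replicate 2. Elovl5 exceeded Elovl2 by 600-fold in replicate 1 and 964-fold in replicate 2, with the denominator resting on few counts.

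Acsl4 (ENSMUSG00000031278.12; chrX:142317993-142390535, minus strand), which prefers arachidonic acid and is long studied in steroid-producing cells, was at 124 and 109 TPM, a mean of 117 ± 10.6. It made up 63.7% of the summed TPM of Acsl1, Acsl3, Acsl4, Acsl5 and Acsl6 in replicate 1 and 39.9% in replicate 2. It was the most abundant of them in replicate 1, while in replicate 2 Acsl1 stood at 129 TPM against 31.5 TPM in replicate 1. Lpcat3 (ENSMUSG00000004270.13; chr6:124663027-124704418, plus strand) was at 36.1 and 33.7 TPM, a mean of 34.9 ± 1.71. Its share among Lpcat1 to Lpcat4, Mboat1, Mboat2 and Mboat7 was 34.2% and 37.2%.

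In descending order of mean TPM the genes were Fads2, Fads1, Scd2, Elovl5, Acsl4, Lpcat3, Elovl1, Elovl7, Elovl4 and Elovl2. The animals' ranges were apart in 8 of the 9 neighbouring pairs, Fads2 and Fads1 being the exception. With TPM rescaled over coding genes or taken from the kallisto-format tables, Lpcat3 and Elovl1 overlapped as well. The widest step was between Elovl1 and Elovl7, 19.8-fold in the mean. In all, 8 of the 10 genes were detected at 1 TPM or more in both glands, where 56.3% of nuclear protein-coding genes were.

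**Figure D1:**
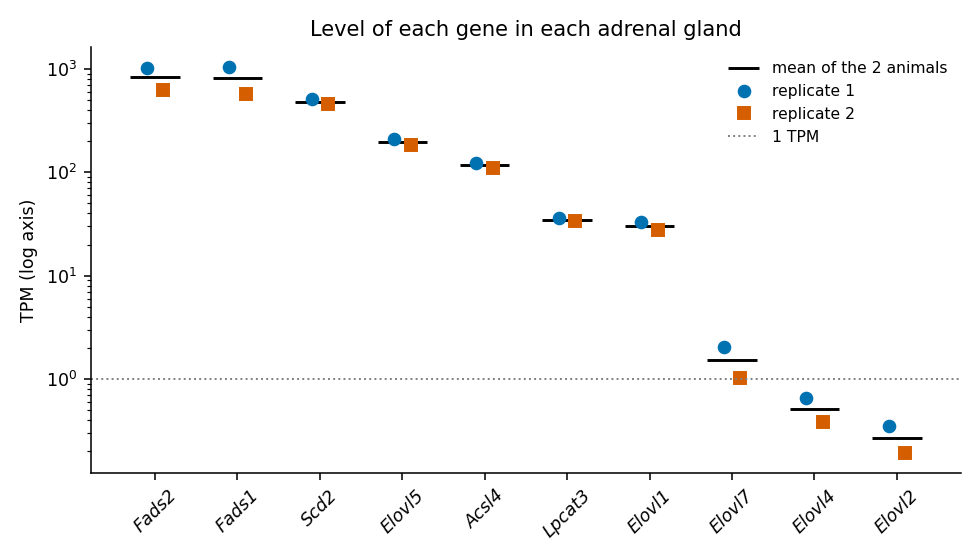
Level of each of the 10 genes in TPM (log axis) in replicate 1 (circles) and replicate 2 (squares), with the mean of the 2 animals as a bar and 1 TPM as a dotted line. Elovl4 and Elovl2 lie below the line in both glands, and the desaturases lie between 455 and 1055 TPM.

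Replicate 2 was compared with replicate 1 to show how far the genes vary between glands of the same sex and strain. Folds are of expected counts scaled by TMM factors, with 95% intervals that cover counting error only. With 1 animal on each side there is no test. All 10 genes had a log2 ratio below 0, that is, a lower value in replicate 2, where 48.1% of 18181 nuclear genes and 45.4% of coding ones did. Their log2 ratios of CPM + 1 ran from -1.01 to -0.24 with a median of -0.42, against 0.01 over all nuclear genes with a mean count of at least 10. The markers of steroidogenic cortex (median -0.40) and of chromaffin cells (median -0.35) stood at a like value, and adipocyte markers at 3.02, with 10 of 10 at least 2-fold higher in replicate 2. The part of tissue composition in the members' ratios was not tested.

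Among the abundant members Fads1 and Fads2 differed most. Fads1 had 96304 counts in replicate 1 and 55498 in replicate 2, 2.02-fold lower in replicate 2 (interval 2.00 to 2.04). It was the only member past the rule of at least 2-fold, which 1.10% of 12853 nuclear genes with a mean count of at least 100 passed in that direction. The call sits on the threshold: scaled by library totals the fold was 1.97, by spike-ins 1.92 and from the kallisto-format counts 1.98. Fads2 had 88262 and 57400 counts, 1.79-fold lower (1.77 to 1.81), short of that threshold. No member was at least 2-fold higher in replicate 2, where 2.40% of the same genes were.

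Elovl7 was 1.88-fold lower in replicate 2 (1.48 to 2.38), from 187 and 116 counts. At a threshold of 1.5-fold, Fads1, Fads2 and Elovl7 passed in the lower direction, with 3.72% of nuclear genes. The other members of moderate to high level lay closer together, as Elovl1 was 1.37-fold lower (1.25 to 1.49) and Elovl5 1.32-fold lower (1.29 to 1.35). Acsl4 was 1.23-fold lower (1.21 to 1.26), Scd2 1.21-fold lower (1.20 to 1.22) and Lpcat3 1.20-fold lower (1.12 to 1.28).

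The scarce elongases gave wide intervals. Elovl2 was 1.99-fold lower (1.13 to 3.59) and Elovl4 1.37-fold lower (0.842 to 2.26), and both fell under the count minimum of 100. Elovl4 was the only member whose interval included equality. The intervals of the 8 members over the minimum all lay below equality, where those of 26.7% of nuclear genes did and those of 30.0% lay above it. Intervals narrow as counts rise, and these background genes were not matched to the members for counts. Such intervals say that the 2 libraries differ beyond counting error, and not that the difference would recur in other animals.

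**Figure D2:**
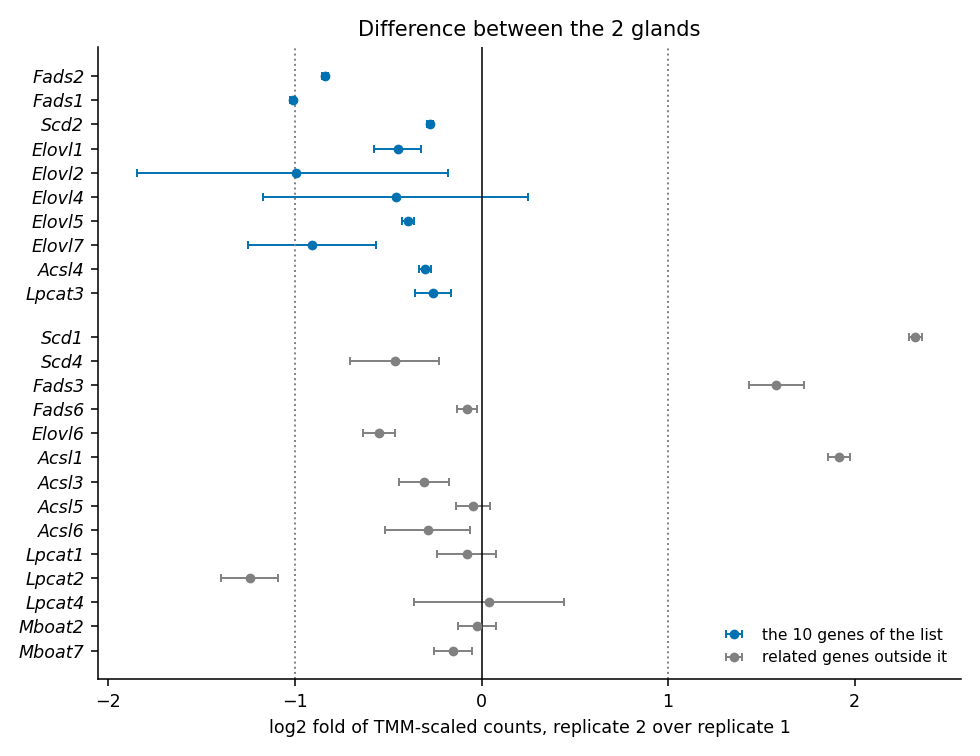
Log2 fold of scaled counts of replicate 2 over replicate 1 for the 10 genes (coloured) and for related genes outside the list (grey), with 95% intervals for counting error. Dotted lines mark 2-fold. All 10 points lie left of 0, and so do most of the related genes drawn, which are a selection. Scd1, Fads3 and Acsl1 lie to the right of the 2-fold line.

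Most of the related genes drawn, a selection from the lists below, were lower in replicate 2, among them Elovl6, Acsl3, Mboat7 and Lpcat2. The interval of Acsl5 (1.03-fold lower, 0.969 to 1.10) included equality. Over the whole lists, log2 ratios were below 0 in 2 of 5 other desaturases and 1 of 1 other elongases. They were below 0 in 3 of 4 other synthetases and 5 of 9 other phospholipid acyltransferases. These counts are of genes with a mean count of at least 10, where 48.1% of all nuclear genes were below 0. Several close relatives stood on the other side of equality. Scd1, the stearoyl-CoA desaturase typical of liver and fat, was at 120 TPM in replicate 1 and 362 TPM in replicate 2, 5.01-fold higher in scaled counts (4.89 to 5.13) but 3.02-fold in TPM. It was the only gene of the pathway and context lists over the count minimum whose TPM and count ratios lay more than 1.5-fold apart. The ratio of Scd2 to Scd1 in TPM was 4.25 in replicate 1 and 1.26 in replicate 2. The Scd genes are close copies of each other, and Scd2 was the only member with an expected count that was not whole, the mark of reads shared between genes. Fads3, the third gene of the Fads cluster, was at 6.50 and 20.5 TPM, 2.99-fold higher (2.70 to 3.31). Acsl1, the synthetase typical of fat and muscle, was 3.77-fold higher (3.62 to 3.93). The adipocyte markers given above moved in the same direction, and their part in these ratios was not tested.

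Neighbours on the chromosome therefore stood apart. On chromosome 19, Fads3 ends 2655 bases from the end of Fads2, and the starts of Fads2 and Fads1 lie 81142 bases apart on opposite strands. Fads2 and Fads1, which are transcribed away from each other, had log2 ratios of -0.84 and -1.01, and Fads3 one of 1.52. In the Scd cluster Scd2 was at -0.28 and Scd4 at -0.42, while Scd1 was at 2.32. Scd4 itself was at 3.69 and 2.81 TPM.

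**Figure D3:**
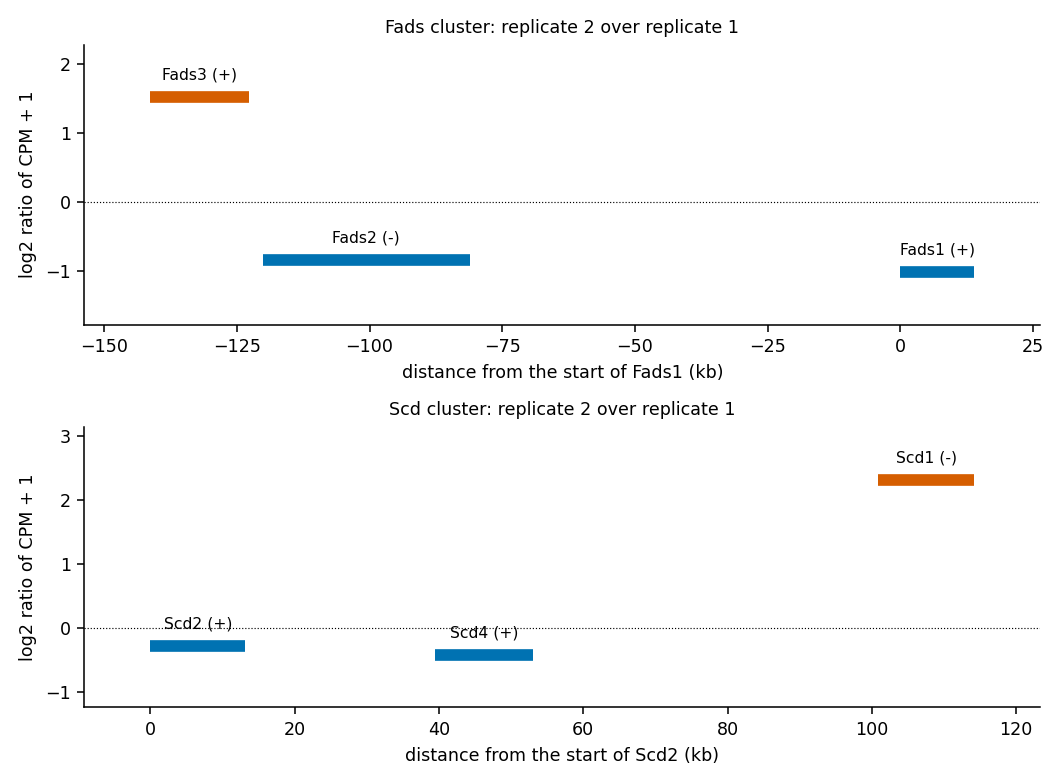
Protein-coding genes of the Fads and Scd clusters with a mean count of at least 10, drawn by distance in kb from the start of Fads1 or Scd2 (x axis) at their log2 ratio of CPM + 1, replicate 2 over replicate 1 (y axis), with strand in brackets. Fads3 and Scd1 lie above 0 and the other genes drawn lie below it.

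Expression of the members was next read by transcript, as each transcript's percentage of the TPM of its gene (IsoPct). Of 44 annotated transcripts of the 10 genes, 24 are protein-coding. In 5 genes a single transcript took over 90% in both glands. These were Fads1-201 (95.7% and 93.0%), Fads2-201 (99.82% and 99.97%), Scd2-201 (99.8% and 99.9%), Elovl5-201 (98.8% and 92.2%) and Elovl2-202 (100% in both). The kallisto-format tables gave Fads2-201 85.7% and 89.2% and put 14.3% and 10.3% on the noncoding Fads2-203. They gave Elovl5-201 82.5% and 72.1%. The Elovl2 share is not firm, since the posterior estimates split it into 62.5% and 47.0% for Elovl2-202 and 37.5% and 53.0% for Elovl2-201.

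In the RSEM-format tables Acsl4 was spread over 3 transcripts that encode proteins of differing length. Acsl4-203 took 58.7% and 68.8%, and Acsl4-202 took 18.7% and 13.7%, and both have 670 codons. Acsl4-201, with 711 codons, took 22.7% and 17.6%. The longer protein, known mainly from brain, thus had the smaller share in both glands, and the kallisto-format share of Acsl4-201 was lower still at 15.3% and 11.5%. The kallisto-format tables put a further 3.78% and 3.87% on Acsl4-204, which has 711 codons too. The gene had 17184 and 16187 counts, and shares among transcripts of shared sequence are model estimates.

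Elovl1 had no dominant transcript. Elovl1-203, with 202 codons, took 40.0% and 47.7%, and the longer Elovl1-207 and Elovl1-201, both with 279 codons, took 35.7% and 21.2%, and 17.7% and 15.8%. The kallisto-format tables listed Elovl1-207 at 0 and put 37.1% and 28.9% on Elovl1-202, which encodes 279 codons too, so the tables did not give the same split. Lpcat3-201, its only protein-coding transcript, took 72.5% and 68.1% of Lpcat3, and the remainder lay on noncoding or decay types, among them the retained intron Lpcat3-207 with 12.2% and 6.68%. Lpcat3 overlaps Emg1 on the opposite strand by 334 bases, and Elovl1 overlaps Cdc20 by 53 bases. The library kit keeps strand per the labels.

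The 2 scarce elongases and Elovl7 gave shares that rest on few counts. Elovl7-201 took 62.2% and 91.7%, and Elovl7-202, annotated for nonsense-mediated decay, took 37.8% and 8.27%, but 46.4% and 36.4% in the kallisto-format tables. Elovl4-201 took 65.6% and 100%, and Elovl4-202 took the other 34.4% in replicate 1 and was listed at 0 in replicate 2.

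**Figure D4:**
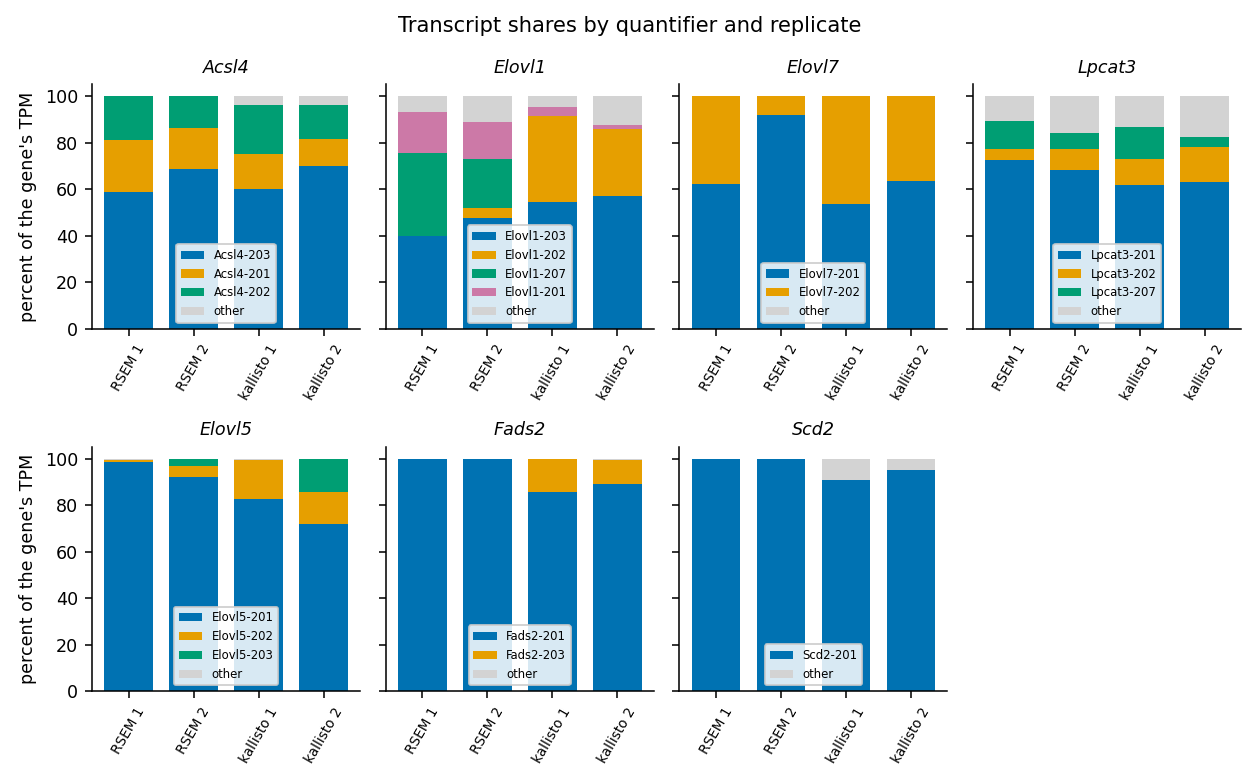
Percent of the gene's TPM on each transcript (stacked bars, y axis) in the RSEM-format and the kallisto-format tables for replicates 1 and 2 (x axis). The shares of Fads2, Scd2 and Elovl5 are near 100% in the RSEM format and lower in the kallisto format, and the split of Elovl1 differs between formats.

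The other genes of the route were read from 11 lists of 71 genes, of which 63 were detected. Of the 61 over the count minimum, 9 were at least 2-fold higher in replicate 2 and 1 was lower, and the median log2 ratio was 0.11 over 69 genes. Over all 12853 nuclear genes with that minimum, 2.40% were higher and 1.10% lower by the same rule. These shares are also the background for the counts of each list below. The lower gene was the acyltransferase Lpcat2, at 16.3 and 7.92 TPM (2.37-fold lower, 2.13 to 2.64).

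Genes of the shared machinery that serves elongases and desaturases ranged from 1.66 to 181 TPM in replicate 1. Among the 6 genes of the later steps of elongation none passed the rule in either direction. Tecr, the reductase of the last step, was at 181 and 161 TPM, the dehydratase Hacd3 at 137 and 128 TPM, and the ketoacyl reductase Hsd17b12 at 53.7 and 54.7 TPM. The 4 genes that supply electrons to desaturases through cytochrome b5 had none past the rule either. Cyb5b was at 163 and 160 TPM, Cyb5a at 128 and 141 TPM and Cyb5r3 at 127 and 122 TPM. Fads2 and Fads1 thus stood above these partners in TPM in both glands. Of the 2 other elongases, Elovl6, which extends palmitate, was at 18.4 and 14.0 TPM and Elovl3 at 0.10 and 0.25 TPM. Fads6 was at 39.8 and 41.2 TPM and Degs1, the ceramide desaturase, at 33.5 and 40.3 TPM.

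Peroxisomal steps, by which a longer precursor is shortened to docosahexaenoic acid, had 2 of 8 genes at least 2-fold higher in replicate 2 and none lower. Abcd2, a peroxisomal importer typical of fat, was at 2.60 and 15.9 TPM, and Acaa1b, a thiolase, at 1.18 and 3.51 TPM. Scp2 was at 56.8 and 108 TPM and Acaa1a at 41.5 and 57.5 TPM. In uptake and transport, 3 of 5 genes over the count minimum were higher: the fatty acid receptor Cd36 at 40.9 and 216 TPM, and the binding proteins Fabp5 at 4.92 and 18.5 TPM and Fabp3 at 1.14 and 15.4 TPM. Slc27a1, a transporter, was at 33.6 and 57.7 TPM.

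Among acyl-CoA synthetases other than Acsl4, Acsl1 was the only one of 4 past the rule. Acsl5 was at 19.7 and 18.5 TPM and Acsl3 at 14.8 and 12.7 TPM. Of the other phospholipid acyltransferases 1 of 8 over the minimum passed, Lpcat2. Agpat3 was at 81.7 and 85.7 TPM, Lpgat1 at 24.5 and 42.3 TPM and Mboat7, which places arachidonic acid in phosphatidylinositol, at 27.5 and 23.9 TPM.

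Of 9 regulators, Ppara, the fatty acid sensor of oxidation genes, was at least 2-fold higher at 2.11 and 7.21 TPM (2.48-fold, 2.09 to 2.95). The sterol regulatory factors lay on opposite sides of equality, since Srebf1 was at 86.9 and 137 TPM (1.56-fold higher, 1.51 to 1.62) and Srebf2 at 64.4 and 44.9 TPM (1.47-fold lower, 1.42 to 1.52). Insig1, which retains their precursors and is itself a target, was at 63.1 and 47.9 TPM (1.43-fold lower).

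For context, cholesterol synthesis, which shares sterol regulatory factors with the desaturases, had 12 of 20 genes at least 2-fold lower in replicate 2 and none higher, with a median log2 ratio of -1.17 and a summed level of 1396 and 654 TPM. Among those 12 were Dhcr7 (479 and 217 TPM), Msmo1 (158 and 70.9 TPM), Fdps (140 and 56.4 TPM), Lss, Idi1, Sqle, Cyp51, Fdft1, Mvd and Hsd17b7. Fatty acid synthesis was mixed, with 4 of 6 genes higher in replicate 2 and 2 lower. The 3 past the rule were all higher. Fasn was at 86.4 and 266 TPM, Acaca at 25.8 and 70.2 TPM and Thrsp at 6.24 and 127 TPM. The 2 lower genes were the most abundant of the list. Me1 was at 801 and 704 TPM (1.20-fold lower) and Acly at 595 and 450 TPM (1.38-fold lower). The list summed to 1529 and 1643 TPM. All 10 members stood on the side of the cholesterol genes, as did Me1 and Acly. Whether a common factor links the members and the cholesterol genes was not tested.

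**Figure D5:**
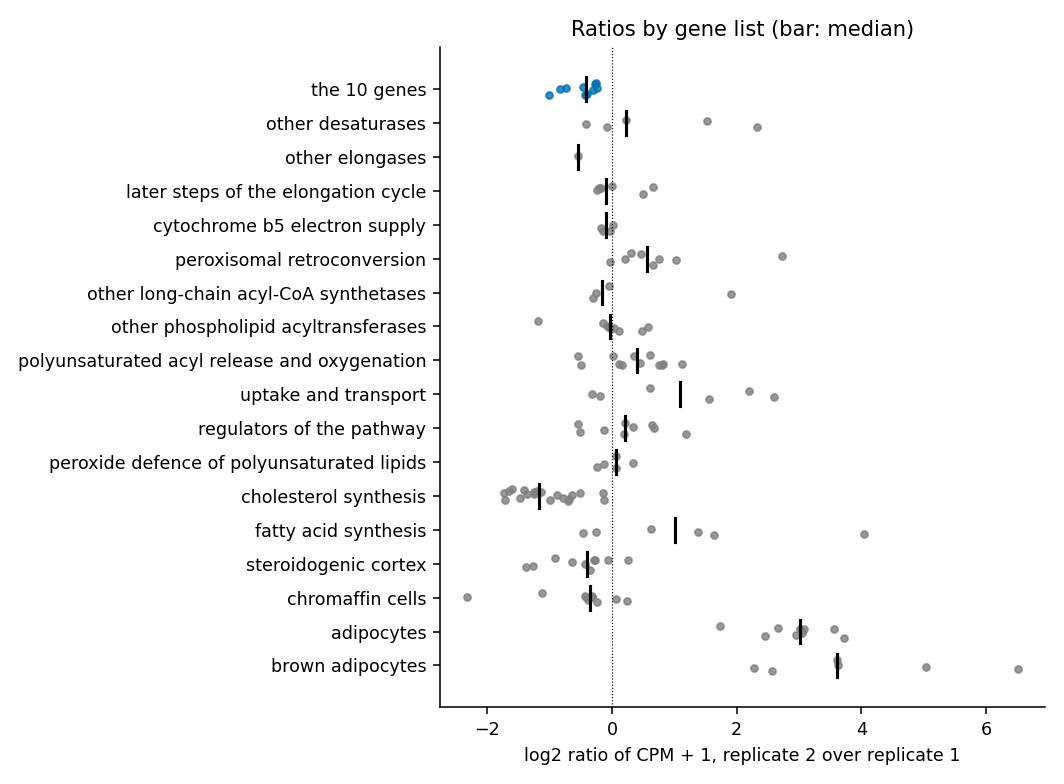
Log2 ratio of CPM + 1 of replicate 2 over replicate 1 (x axis) for each gene with a mean count of at least 10, by list (y axis), with the median as a bar and the 10 genes coloured. The 10 genes and the 20 cholesterol synthesis genes lie wholly below 0, and the adipocyte markers wholly above it.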

How the data were processed

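Total RNA of the adrenal gland of 2 mice was sequenced, and the deposited tables quantify each library alone. The authors deposited expected counts (model estimates, not always whole), TPM and, per transcript, its percent of the gene's TPM (IsoPct), with posterior means and credibility bounds of the signal, under RSEM's column names per the file headers. Further deposited tables hold estimated counts and TPM under kallisto's column names. Text deposited with them gives mm10 and GENCODE M21. Aligner and quantifier versions were not given in the sources used here. All 55536 gene IDs matched GENCODE M21. Spike-in entries (96), 26248 entries named by a bare number that no source explains, and 1 other entry stayed out of library sizes. They are part of the deposited TPM total, with 0.354% and 0.367% of it.

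Counts were 29994901 and 33987434, so a count of 0 allows 3 counts, 0.101 and 0.0871 CPM. Intervals and floors cover counting error only. Expected counts were rounded for TMM factors (edgeR 4.0.16, R 4.3.3) and folds. Log2 ratios are of CPM + 1, which understates differences of scarce genes. Folds have exact conditional binomial 95% intervals. The 2-fold rule needs a mean count of at least 100 and an interval without equality. DESeq2 1.42.0 size factors, library totals, the spike-in sum, kallisto-format values, posterior means, other pseudocounts, minimums and thresholds were alternatives. The scripts (Python 3.11.15, pandas 2.3.3, numpy 2.4.6, scipy 1.17.1, matplotlib 3.10.9) were tested on simulated data. The 2 libraries differed beyond sampling noise (chi-square per degree of freedom 53.2).

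Named were all 10 members, the 3 highest genes and all past the 2-fold rule of each pathway and context list, and transcripts with IsoPct of at least 10 in either library. Scd4 and the transcripts Fads2-203, Elovl2-201 and Elovl1-202 fall outside that rule and were named after their values were seen. The CCAAT box, GC box and cAMP response element were added after the data were seen. Members and lists were chosen with earlier results of these data known. Some genes of these lists are not reported here by name. Protein features were not analysed here.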

Additional observations from a re-analysis of the deposited data

How the results depend on the processing

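No paired analysis was possible because the labels give 1 group. A log2 ratio needs both animals, so no replicate was left out of it. All 10 log2 ratios stayed below 0 with DESeq2 size factors, library totals, the spike-in sum and kallisto-format counts. Another pseudocount cannot change a sign, and posterior mean counts gave the same values. Their median, -0.42, was -0.35 with the spike-in sum, -0.34 with kallisto-format counts and -0.35 with a pseudocount of 5 CPM. The count of members at least 2-fold lower, 1, was 0 with library totals, the spike-in sum and kallisto-format counts, and 3 at a threshold of 1.5-fold. Without 1 replicate, or with TPM rescaled over coding genes (an alternative chosen after seeing the data), 8 members were detected. The median member level, 75.9 TPM, was 203 with TPM rescaled over coding genes, 63.0 in the kallisto format and 71.5 to 80.2 without 1 replicate. Fads2 to Fads1, 1.04 in the mean, was 1.16 in the kallisto format and 0.981 to 1.10 without 1 replicate. Elovl5 to Elovl2 was 600 to 964, Scd2 to Scd1 1.26 to 4.25, the Acsl4 share 39.9% to 63.7% and the Lpcat3 share 34.2% to 37.2% without 1 replicate. On CPM, Scd2 to Scd1 was 5.89 against 2.76 and the Lpcat3 share 26.5% against 35.7%. The median leading transcript share of the members, averaged over the replicates, was 88.3%. It was 76.4% in the kallisto format, 73.9% from posterior estimates and 84.1% to 92.6% without 1 replicate. The cause of these shifts was not tested. Depth limits Elovl2 and Elovl4, with 21 to 39 counts.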

Other observations

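Genes that release and oxygenate polyunsaturated acyl chains were mostly scarce in these glands. Of 12 such genes 8 were detected, and none of the 7 over the count minimum was at least 2-fold apart between replicates. Ptges3, a cochaperone that also carries prostaglandin E synthase activity, was at 65.2 and 47.7 TPM, Acot7, an acyl-CoA thioesterase, at 23.4 and 18.4 TPM and Ptges at 9.26 and 18.8 TPM. The cytosolic phospholipase Pla2g4a, at 2.47 and 2.28 TPM, was named after its values were seen.

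Of 5 genes that protect polyunsaturated lipids from peroxidation 4 were detected, and none was past the 2-fold rule. Gpx4, the phospholipid hydroperoxidase, was at 234 and 288 TPM, Aifm2 at 63.6 and 68.7 TPM and Nfe2l2, a regulator of antioxidant genes, at 37.7 and 34.8 TPM.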
